A study of Yarrowia lipolytica with 35 samples.

Results

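The comparison set growing cultures of Yarrowia lipolytica strain DSM-21175 on glycerol against growing cultures of the same strain on glucose. Its members are 6 RNA sequencing libraries of the 35 in the series, chosen by strain, carbon source and phase from their labels. The 3 glycerol libraries come from bioreactors of DSM-21175 with glycerol as the sole carbon source, in growth phase, sampled at 8 h and pH 5.5. The 3 glucose libraries come from bioreactors of DSM-21175 with glucose as the sole carbon source, in growth phase, sampled at 12 h and pH 5.5. The submitters describe the 3 of each group as biological triplicates. The carbon sources were sampled 4 h apart, so carbon source and hour cannot be told apart in any growth-phase value below. Further groups serve to test differences. They are DSM-3286 growing on glycerol (8 h) and on glucose (12 h) at pH 5.5, and DSM-21175 in nitrogen-limited stationary phase at 32 h and pH 5.5 on glycerol and on glucose, with 3 libraries each.

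Y. lipolytica is an oleaginous yeast that grows on sugars, glycerol, alkanes and fatty acids. Glycerol is phosphorylated by glycerol kinase and oxidised in the mitochondrion to dihydroxyacetone phosphate, so it enters glycolysis below the hexose phosphates, whereas glucose has to be imported by hexose transporters and phosphorylated first. Fatty acids are broken down in peroxisomes by acyl-CoA oxidases and thiolase, and the acetyl-CoA formed is used through the glyoxylate cycle. The species also makes citrate, erythritol and mannitol, depending on carbon source, nitrogen and pH.

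Libraries held 10.16, 12.55 and 9.22 M reads assigned to genes on glycerol and 10.89, 13.52 and 10.49 M on glucose, for replicates 1 to 3 in each. Levels are given as CPM (a gene's reads scaled to a common library size with TMM factors), or as FPKM (CPM per kilobase of effective gene length) where genes are compared with each other. Either is a share of the RNA sequenced, so less of a transcript and more of all others cannot be told apart. Changes are log2 fold changes, glycerol minus glucose, with their SE, so that 1 unit is 2-fold. A gene is called when its p from the quasi-likelihood test of edgeR, adjusted over 6537 genes after Benjamini and Hochberg, was under 0.05. Names of metabolic genes are published names attached to locus tags from general knowledge, and names of most regulators come from the authors' deposited table. Genes were named by a rule given with the processing, and further members of the same lists were named after their values were seen.

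Both groups held a library that stood apart from its replicates. Replicate 3 on glucose had 350 genes at least 2-fold above or below both of the other glucose libraries, against 41 and 54 for replicates 1 and 2. Replicate 2 on glycerol had 211 such genes, against 94 and 116 for replicates 1 and 3. Pearson's r across genes was 0.99401 between glucose replicates 1 and 2, but 0.97399 and 0.97365 between either of them and replicate 3. Of the genes that stood apart in both libraries, 32 were higher in both and 19 lower in both, while 2 were higher in glucose replicate 3 and lower in glycerol replicate 2, and 3 the reverse. All 6 libraries were kept, and for genes in which either library stood apart the change without it is given beside the reported one.

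In all, 3049 of 6537 genes (46.6%) were called, 1599 higher (24.5%) and 1450 lower (22.2%) on glycerol. At least 2-fold changes were fewer and leaned to the lower side, with 267 genes higher (4.08%) and 499 lower (7.63%). The glycerol libraries did not overlap the glucose libraries in 3383 genes (51.8%), and of the 3049 called genes 326 did overlap. The median over all genes was -0.01. Without both libraries that stood apart, 2617 genes were called, 1302 higher and 1315 lower. The balance of calls depended on the processing. With RLE factors in place of TMM, edgeR called 1458 genes higher and 1629 lower. With TMM but no filter on expression, it called 1465 higher and 1576 lower. A call was therefore common among all genes, and each list below is given with the size and the direction of its members' changes. Counts of calls in any list or role group are to be read beside the shares of all genes, 24.5% higher and 22.2% lower.

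**Figure D1:**
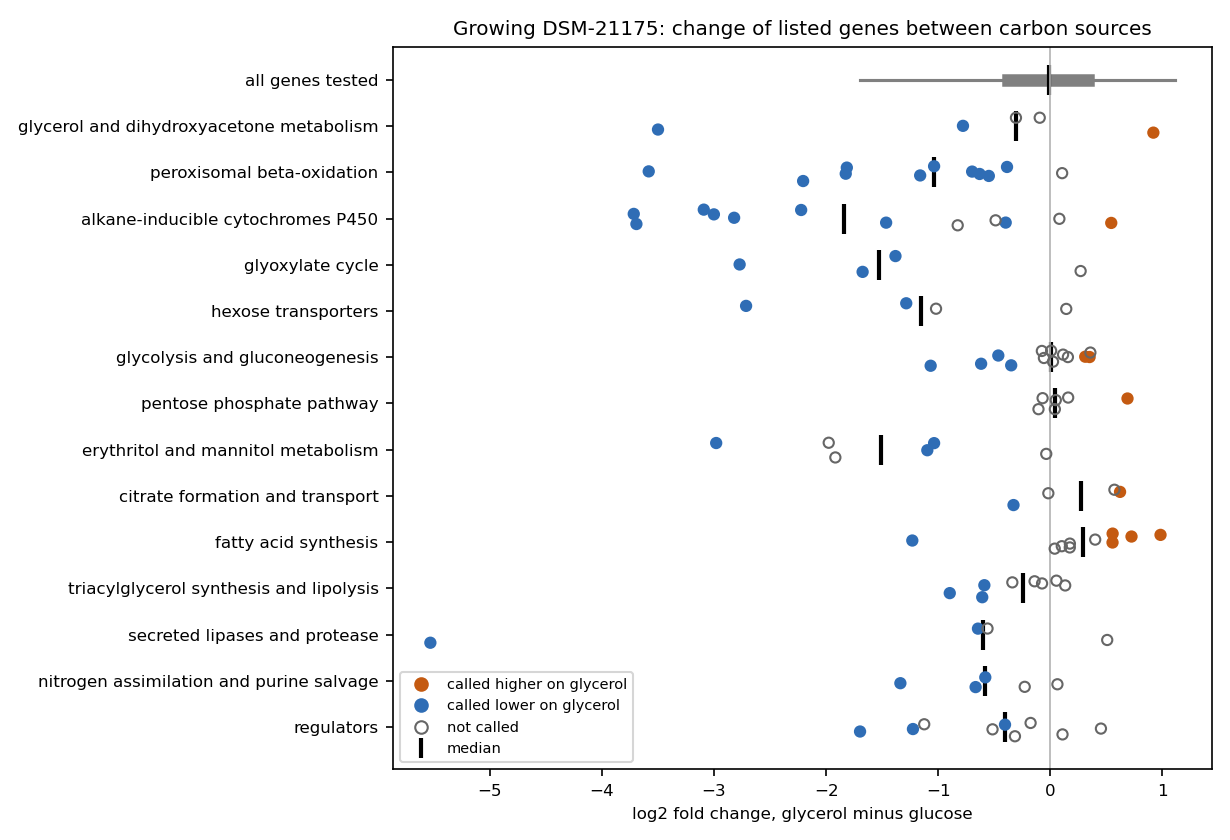
Log2 fold change (glycerol minus glucose) of each gene in 14 lists, with the median of each list as a vertical bar. The top row shows all genes tested, from the 5th to the 95th percentile as a thin line and from the 25th to the 75th as a thick one. The lists of beta-oxidation, cytochromes P450 and the glyoxylate cycle lie left of zero with medians of -1.04, -1.84 and -1.53, and fatty acid synthesis has a median of 0.29.

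Of the genes around glycerol 3-phosphate, glycerol kinase was lower on glycerol and the enzyme that makes glycerol 3-phosphate from dihydroxyacetone phosphate was higher. Of 5 genes of glycerol and dihydroxyacetone metabolism, 1 was called higher, 2 lower and 2 not, with a median of -0.31. GUT1 (YALI0F00484g), glycerol kinase, was at 654.7, 433.7 and 738.7 CPM in glycerol cultures, against 988.4, 965.9 and 1181 CPM in glucose cultures. Every glycerol library lay below every glucose library, and the change was -0.78 ± 0.15 (edgeR, Benjamini-Hochberg adjusted p = 0.000113). GUT2 (YALI0B13970g), the mitochondrial glycerol-3-phosphate dehydrogenase that follows, was at 789.6, 570.3 and 638.6 CPM in glycerol cultures, against 711.2, 742.9 and 680.0 CPM in glucose cultures. Its groups overlapped, and the change of -0.09 ± 0.16 was not called (edgeR, Benjamini-Hochberg adjusted p = 0.656).

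GPD1 (YALI0B02948g), the cytosolic enzyme that reduces dihydroxyacetone phosphate to glycerol 3-phosphate, had the opposite sign to GUT1. It was at 346.9, 315.8 and 276.7 CPM in glycerol cultures, against 149.0, 165.8 and 182.2 CPM in glucose cultures, a change of 0.92 ± 0.10 (edgeR, Benjamini-Hochberg adjusted p = 9.71e-09). All glycerol libraries were above all glucose libraries. The 2 dihydroxyacetone kinase genes differed in level. DAK2 (YALI0E20691g) was at 1.32, 0.703 and 4.92 CPM in glycerol cultures, against 17.7, 18.2 and 38.3 CPM in glucose cultures, without overlap and with a change of -3.50 ± 0.66 (edgeR, Benjamini-Hochberg adjusted p = 9.85e-05), or -3.04 without glucose replicate 3, its highest library. DAK1 (YALI0F09273g) was far more abundant, at 285.8 FPKM on glycerol and 353.5 FPKM on glucose, where DAK2 had 1.37 FPKM on glycerol and 14.6 FPKM on glucose, and its change of -0.31 ± 0.15 did not pass (edgeR, Benjamini-Hochberg adjusted p = 0.0955), but passed without glucose replicate 3 (-0.41; adjusted p = 0.0454 by the same test).

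**Figure D2:**
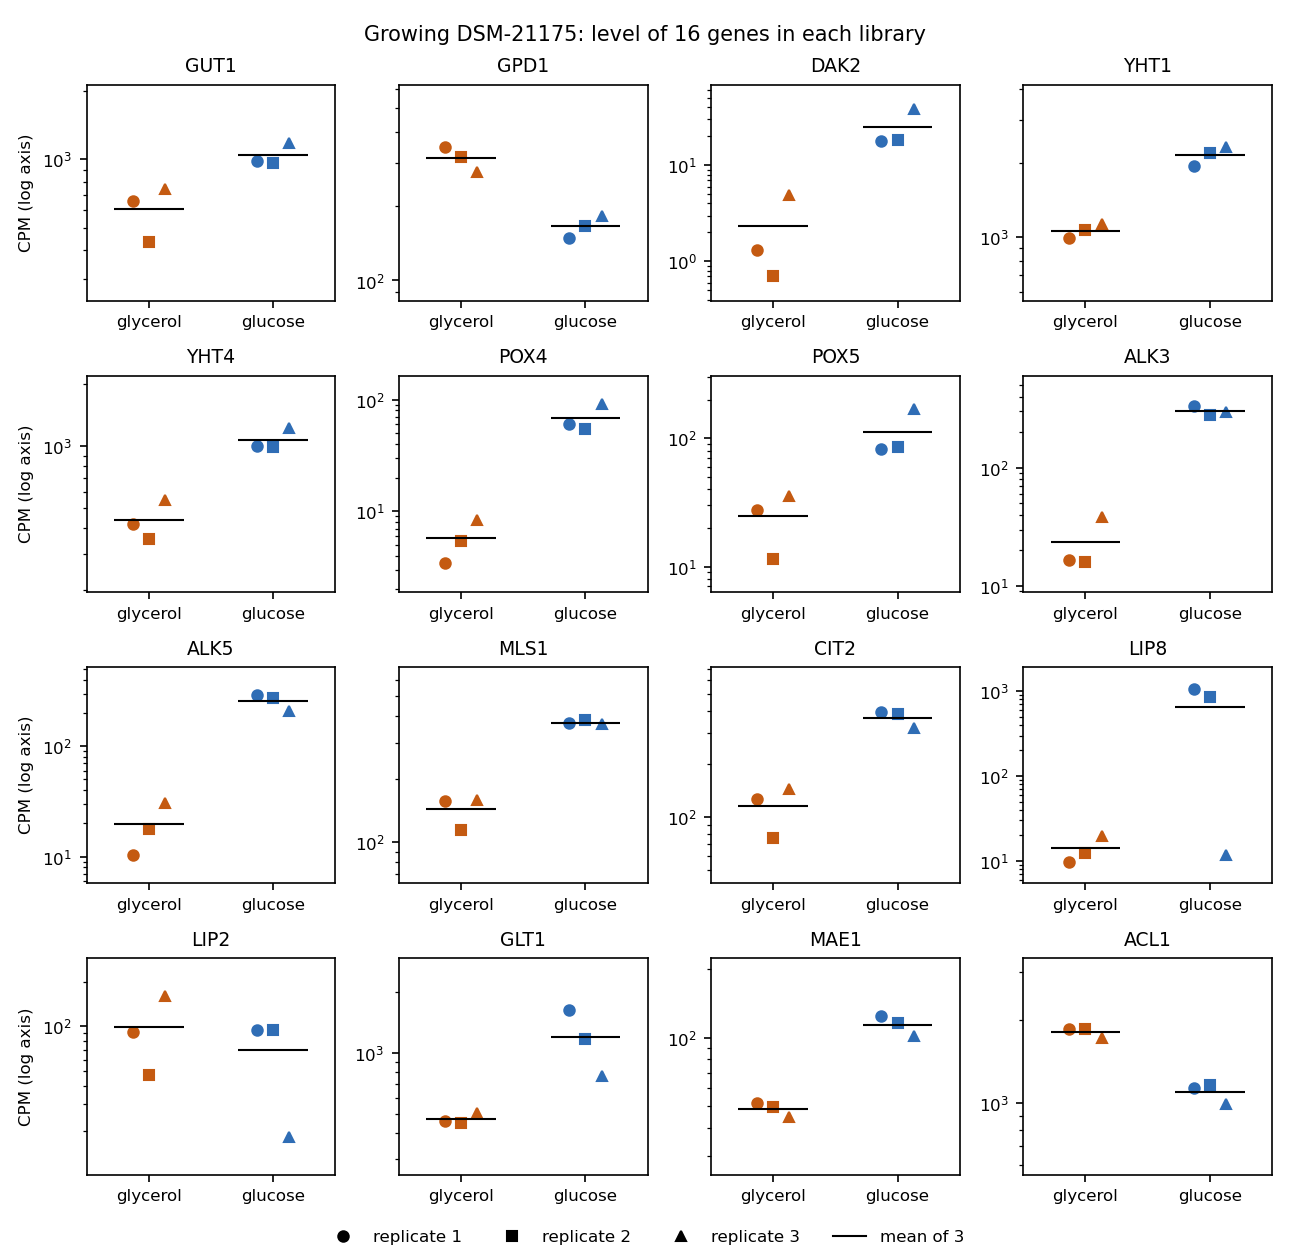
CPM of 16 genes (log axis) in each of the 3 glycerol libraries, left, and the 3 glucose libraries, right, with symbols for the replicates and a line at the mean. For most genes the groups separate, whereas LIP8 on glucose has replicate 3 at 11.7 CPM beside 1066.7 and 849.6 CPM in replicates 1 and 2.

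Of 4 hexose transporter genes 2 were called lower on glycerol and 2 not called, with a median of -1.15, and hexokinase was lower as well. YHT1 (YALI0C06424g), one of the main hexose transporters of the species, was at 992.2, 1064.7 and 1132.9 CPM in glycerol cultures, against 1941.6, 2201.2 and 2324.0 CPM in glucose cultures. The groups were far apart and replicates close, yet its change of -1.02 ± 0.49 missed the threshold in the fit of all libraries (edgeR, Benjamini-Hochberg adjusted p = 0.0899). In a fit of only the 6 libraries it passed at -1.04 (edgeR, Benjamini-Hochberg adjusted p = 0.000668). That fit also lost the calls of other genes named here, among them GLK1, PYC1 and EYI2. YHT4 (YALI0E23287g) was at 421.9, 353.7 and 547.6 CPM in glycerol cultures, against 1005.5, 996.7 and 1222.3 CPM in glucose cultures. It did not overlap and changed by -1.29 ± 0.20 (edgeR, Benjamini-Hochberg adjusted p = 3.9e-06). Even on glycerol, then, both transporter genes were abundant, with 686.9 FPKM for YHT1 and 243.8 FPKM for YHT4 on glycerol, against 1392.5 and 594.2 FPKM on glucose. The other 2 transporter genes had little RNA: YHT3 (YALI0F19184g) was at 2.29 FPKM on glycerol and 2.09 FPKM on glucose, and YHT2 (YALI0C08943g) had at most 10 reads in any of the 6 libraries, so its call (-2.71 ± 0.90) rests on few counts. The call was lost without glycerol replicate 2 or 3 (-2.59 and -2.24; edgeR, Benjamini-Hochberg adjusted p = 0.0529 and 0.0613).

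Glycolysis and gluconeogenesis had 2 of 13 genes called higher, 4 lower and 7 not, with a median of 0.01. Hexokinase HXK1 (YALI0B22308g) was at 97.7, 114.5 and 106.8 CPM in glycerol cultures, against 215.7, 219.0 and 234.2 CPM in glucose cultures, a change of -1.07 ± 0.14 without overlap (edgeR, Benjamini-Hochberg adjusted p = 4.78e-07). The second glucose-phosphorylating enzyme, glucokinase GLK1 (YALI0E15488g), averaged 881.6 ± 76.3 CPM on glycerol and 710.5 ± 123.5 CPM on glucose (SD, n = 3 each) and was called higher at 0.31 ± 0.10, a call lost without glucose replicate 3 (0.17; edgeR, Benjamini-Hochberg adjusted p = 0.123). Per length GLK1 was the more abundant of the pair on both carbon sources, with 612.2 FPKM on glycerol and 493.4 FPKM on glucose, against 66.3 and 138.9 FPKM for HXK1.

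Phosphofructokinase PFK1 (YALI0D16357g) was called at -0.35 ± 0.13, a call lost without glycerol replicate 2 (-0.25; edgeR, Benjamini-Hochberg adjusted p = 0.148) or glucose replicate 1 or 2 (-0.29 and -0.24; adjusted p = 0.103 and 0.164 by the same test). Several enzymes further down did not pass. Triose phosphate isomerase TPI1 (YALI0F05214g) differed by 0.01 ± 0.08, phosphoglycerate kinase PGK1 (YALI0D12400g) by 0.02 ± 0.12, enolase ENO1 (YALI0F16819g) by -0.08 ± 0.14 and pyruvate kinase PYK1 (YALI0F09185g) by 0.16 ± 0.12. Glyceraldehyde-3-phosphate dehydrogenase, GAPDH (YALI0C06369g), was called lower, at 5634.2, 4471.3 and 5150.9 CPM in glycerol cultures, against 7567.4, 7657.2 and 5822.0 CPM in glucose cultures, and its change was -0.46 ± 0.09 (edgeR, Benjamini-Hochberg adjusted p = 6.92e-05). The gene of pyruvate carboxylase, PYC1 (YALI0C24101g), which feeds oxaloacetate, changed by -0.62 ± 0.18. Its groups overlapped through glucose replicate 3, at 730.1 CPM beside 1588.3 and 1537.6 CPM, and the change was -0.90 without that library. The call was lost without glycerol replicate 2 (-0.44; edgeR, Benjamini-Hochberg adjusted p = 0.051) or without glucose replicate 1 (-0.44; adjusted p = 0.0583 by the same test). Fructose bisphosphatase FBP1 (YALI0A15972g) was at 0.35 ± 0.13 and lost its call with RLE scaling, with no filter, with DESeq2 and with limma (0.27 to 0.32), and without glycerol replicate 1 (0.20; edgeR, Benjamini-Hochberg adjusted p = 0.251), glycerol replicate 3 (0.32; adjusted p = 0.0914 by the same test) or glucose replicate 3 (0.26; adjusted p = 0.152 by the same test). The pentose phosphate pathway had 1 of 6 genes called higher and 5 not. RPE1 (YALI0C11880g), ribulose-phosphate epimerase, was at 272.0, 210.6 and 268.7 CPM in glycerol cultures, against 155.8, 168.4 and 142.3 CPM in glucose cultures, a change of 0.69 ± 0.10 without overlap (edgeR, Benjamini-Hochberg adjusted p = 2.64e-06).

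The genes of fatty acid breakdown were lower on glycerol than on glucose, although neither culture was fed fat. Of 11 genes of peroxisomal beta-oxidation 10 were called lower and 1 was not called, with a median of -1.04, beside 22.2% called lower over all genes. POX4 (YALI0E27654g), an acyl-CoA oxidase, was at 3.41, 5.45 and 8.39 CPM in glycerol cultures, against 60, 54.9 and 90.6 CPM in glucose cultures. The groups were about 1 order of magnitude apart, and the change was -3.58 ± 0.29 (edgeR, Benjamini-Hochberg adjusted p = 1.44e-10). POX5 (YALI0C23859g) was at 27.5, 11.4 and 35.2 CPM in glycerol cultures, against 82.8, 85.1 and 170.8 CPM in glucose cultures, a change of -2.20 ± 0.29 (edgeR, Benjamini-Hochberg adjusted p = 7.39e-07). Its lowest and its highest value came from the libraries that stood apart, and the groups did not overlap. Without glycerol replicate 2 the change was -1.85, without glucose replicate 3 -1.78 and without both -1.44, called each time. POX1 (YALI0E32835g) and POX6 (YALI0E06567g) each changed by -1.82, POX2 (YALI0F10857g), which prefers long-chain substrates, by -1.04, and POX3 (YALI0D24750g), which prefers short-chain ones, by -0.63.

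The 6 oxidase genes were not shifted by 1 factor, and their order by level differed between carbon sources. On glycerol POX3 had 48.6 FPKM, POX5 11.8, POX2 8.29, POX6 5.65, POX1 3.47 and POX4 2.73 FPKM. On glucose POX3 had 75.3 FPKM, POX5 53.8, POX4 32.5, POX6 19.9, POX2 17 and POX1 12.3 FPKM. POX4 was therefore the lowest of the 6 on glycerol, but above POX6, POX2 and POX1 on glucose. Of the later steps, thiolase POT1 (YALI0E18568g) changed by -1.16 ± 0.20, the multifunctional enzyme gene MFE2 (YALI0E15378g) by -0.70 ± 0.13 and the peroxisomal transporter genes PXA2 (YALI0D04246g) and PXA1 (YALI0A06655g) by -0.55 ± 0.08 and -0.39 ± 0.09. FAA1 (YALI0D17864g), the acyl-CoA synthetase that activates fatty acids, averaged 1497.5 ± 128.4 CPM on glycerol and 1392.2 ± 177.3 CPM on glucose (SD, n = 3 each) and was not called (0.11 ± 0.09).

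The cytochromes P450 of the ALK family, which hydroxylate alkanes and fatty acids at the end of the chain, gave some of the largest falls. Of 12 genes 8 were called lower, 1 higher and 3 were not called, with a median of -1.84. ALK3 (YALI0E23474g) was at 16.6, 16 and 38.6 CPM in glycerol cultures, against 332.8, 281.9 and 297.5 CPM in glucose cultures, a change of -3.69 ± 0.46 (edgeR, Benjamini-Hochberg adjusted p = 3.8e-07). ALK5 (YALI0B13838g) was at 10.3, 17.9 and 30.8 CPM in glycerol cultures, against 290.1, 274.4 and 207.3 CPM in glucose cultures, a change of -3.72 ± 0.21 (edgeR, Benjamini-Hochberg adjusted p = 2.69e-13). In both genes the groups were widely separated, and both enzymes are known to act on fatty acids. ALK4 (YALI0B13816g), whose locus tag adjoins that of ALK5, had the opposite sign. It was at 93.6, 99.8 and 85.8 CPM in glycerol cultures, against 68.1, 65.3 and 58.2 CPM in glucose cultures, and was called higher at 0.54 ± 0.12 (edgeR, Benjamini-Hochberg adjusted p = 0.000559).

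ALK1 (YALI0E25982g), the main oxidase of shorter alkanes, was at 142.7, 151.4 and 69.3 CPM in glycerol cultures, against 160.8, 176.6 and 307.7 CPM in glucose cultures. Its groups did not overlap, but its change of -0.83 ± 0.55 was not called (edgeR, Benjamini-Hochberg adjusted p = 0.224) and stood at -0.48 without glucose replicate 3 and -0.55 without glycerol replicate 3. By level the family was led by ALK1 and ALK4 on glycerol, at 77.0 and 59.7 FPKM, with ALK3 and ALK5 at 15.4 and 12.3 FPKM. On glucose ALK3 and ALK5 led at 197.2 and 161.2 FPKM, with ALK1 and ALK4 at 136.8 and 41.0 FPKM. ALK2 (YALI0F01320g) shows how far 1 library can reach: it had 68, 71 and 5 reads in glycerol cultures, against 7, 10 and 217 reads in glucose cultures, and was not called (-0.49 ± 0.76). Without glucose replicate 3 it was called higher at 2.82 (edgeR, Benjamini-Hochberg adjusted p = 0.00309). ALK8 (YALI0C12122g) and ALK10 (YALI0B20702g) had at most 7 and 16 reads in any of the 6 libraries, and although both were called their fold changes are uncertain. The call of ALK10 was lost without glycerol replicate 2 (-2.34; edgeR, Benjamini-Hochberg adjusted p = 0.0779), and the change of ALK8, reported as -3.09 ± 1.20, moved to -5.32 without it. The call of ALK8 was lost without glycerol replicate 1 or 3 (-2.65 and -2.69; edgeR, Benjamini-Hochberg adjusted p = 0.104 and 0.0975) and without glucose replicate 1 or 3 (-3.11 and -2.52; edgeR, Benjamini-Hochberg adjusted p = 0.0551 and 0.145).

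In the glyoxylate cycle, which assimilates acetyl-CoA, 3 of 4 genes were called lower and 1 was not called. The malate synthase gene MLS1 (YALI0E15708g) was at 157.5, 114.1 and 158.7 CPM in glycerol cultures, against 370.2, 383.2 and 367.2 CPM in glucose cultures, a change of -1.38 ± 0.17 without overlap (edgeR, Benjamini-Hochberg adjusted p = 1.45e-07). The second malate synthase gene, MLS2 (YALI0D19140g), averaged 2.83 ± 0.789 CPM on glycerol and 19.1 ± 4.61 CPM on glucose (SD, n = 3 each; -2.77 ± 0.49). The citrate synthase gene CIT2 (YALI0E00638g) was at 126.9, 75.8 and 144.5 CPM in glycerol cultures, against 396.3, 386.8 and 323.3 CPM in glucose cultures, and also separated (-1.67 ± 0.24; edgeR, Benjamini-Hochberg adjusted p = 1.93e-06). Isocitrate lyase ICL1 (YALI0C16885g), the first enzyme of the bypass, was not called. It was at 272.1, 169.7 and 236.7 CPM in glycerol cultures, against 191.5, 222.1 and 148.7 CPM in glucose cultures, with overlap (0.27 ± 0.14; edgeR, Benjamini-Hochberg adjusted p = 0.129), and was called higher without glycerol replicate 2 (0.44; adjusted p = 0.0124 by the same test) or glucose replicate 2 (0.41; adjusted p = 0.035 by the same test).

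In fatty acid synthesis 4 of 10 genes were called higher, 1 lower and 5 not called (median 0.29), beside 24.5% called higher and 22.2% lower over all genes. ACL1 (YALI0E34793g), a subunit of the ATP citrate lyase that supplies cytosolic acetyl-CoA, was at 1862.6, 1855.3 and 1719.5 CPM in glycerol cultures, against 1137.0, 1162.3 and 993.1 CPM in glucose cultures. Its partner subunit gene ACL2 (YALI0D24431g) was at 418.5, 374.0 and 431.6 CPM in glycerol cultures, against 302.2, 302.8 and 227.9 CPM in glucose cultures. Both separated fully, with changes of 0.72 ± 0.09 and 0.56 ± 0.11 (edgeR, Benjamini-Hochberg adjusted p = 1.65e-07 and 0.000183). The elongase gene ELO1 (YALI0F06754g) changed by 0.98 ± 0.20 and the desaturase gene FAD2 (YALI0B10153g) by 0.55 ± 0.14. Acetyl-CoA carboxylase ACC1 (YALI0C11407g), FAS1 (YALI0B15059g) and FAS2 (YALI0B19382g), the core of the pathway, were at 0.10 ± 0.15, 0.17 ± 0.16 and 0.40 ± 0.17 and were not called. FAS2 was called higher without glycerol replicate 2 (0.54; edgeR, Benjamini-Hochberg adjusted p = 0.0177) or glucose replicate 1 or 2 (0.49 and 0.51; adjusted p = 0.0436 and 0.0345 by the same test). The one lower gene was malic enzyme MAE1 (YALI0E18634g), at 51.6, 49.3 and 44.7 CPM in glycerol cultures, against 124.1, 116.3 and 101.5 CPM in glucose cultures (-1.23 ± 0.11), again without overlap.

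Genes that store and release triacylglycerol had 3 of 8 members called lower and none higher, beside 22.2% called lower over all genes. The acyltransferase genes DGA1 (YALI0E32769g) and DGA2 (YALI0D07986g), which make the last step of synthesis, changed by -0.61 ± 0.10 and -0.59 ± 0.09. DGA1 averaged 86.7 ± 10.9 CPM on glycerol and 132.1 ± 0.809 CPM on glucose, and DGA2 86.2 ± 7.29 CPM on glycerol and 129.7 ± 3.38 CPM on glucose (SD, n = 3 each). The pair thus had nearly the same change, and neither overlapped between carbon sources. TGL3 (YALI0D17534g), of the intracellular lipolysis machinery, changed by -0.90 ± 0.13 and the lipase gene TGL4 (YALI0F10010g) stood at -0.07 ± 0.09.

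Citrate genes were split. CTP1 (YALI0F26323g), the mitochondrial citrate carrier, was at 284.8, 296.4 and 278.5 CPM in glycerol cultures, against 197.2, 198.6 and 162.8 CPM in glucose cultures, a change of 0.62 ± 0.11 without overlap (edgeR, Benjamini-Hochberg adjusted p = 2.35e-05). CEX1 (YALI0D20196g), the citrate exporter of the plasma membrane, was at 8.91, 11.6 and 9.95 CPM in glycerol cultures, against 6.39, 7.52 and 6.60 CPM in glucose cultures. Its groups did not overlap either, but the change of 0.57 ± 0.29 was not called (edgeR, Benjamini-Hochberg adjusted p = 0.114). Mitochondrial citrate synthase CIT1 (YALI0E02684g) was called at -0.33 ± 0.13, with overlapping groups. Its call was lost without glycerol replicate 2 or 3 (-0.23 and -0.30; edgeR, Benjamini-Hochberg adjusted p = 0.195 and 0.113) and without glucose replicate 1 or 2 (-0.31 and -0.21; edgeR, Benjamini-Hochberg adjusted p = 0.102 and 0.243).

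Of 6 genes of erythritol and mannitol metabolism 3 were called lower and 3 not called, with a median of -1.51. The erythritol-use genes had little RNA in all 6 libraries and varied most among the glycerol replicates. EYI2 (YALI0F01628g), an erythrulose phosphate isomerase, was at 0.77, 0 and 6.47 CPM in glycerol cultures, against 13.8, 19.0 and 19.2 CPM in glucose cultures. A further gene of erythritol use, EYI1 (YALI0F01584g), was at 8.58, 6.50 and 16.3 CPM in glycerol cultures, against 17.8, 22.9 and 22.6 CPM in glucose cultures. The groups did not overlap in either gene, with changes of -2.98 ± 0.85 and -1.04 ± 0.35 (edgeR, Benjamini-Hochberg adjusted p = 0.00561 and 0.0176). Erythrulose kinase EYK1 (YALI0F01606g) was at 1.32, 0.0878 and 2.76 CPM in glycerol cultures, against 2.84, 5.02 and 6.69 CPM in glucose cultures, and its -1.92 ± 0.96 was not called (edgeR, Benjamini-Hochberg adjusted p = 0.107), though it was with DESeq2 (-1.86; DESeq2, Benjamini-Hochberg adjusted p = 0.017). Glycerol replicate 2 was the lowest library in all 3, and without it EYI2 changed by -2.29 and EYK1 stood at -1.26, not called. Without glycerol replicate 3 EYI2 changed by -5.62, and without glycerol replicates 1 or 2 or glucose replicate 3 the call of EYI1 was lost (-0.92, -0.77 and -0.99; edgeR, Benjamini-Hochberg adjusted p = 0.0708, 0.109 and 0.0501). Without both libraries that stood apart, 1 of the 6 genes was called. That was SDR2 (YALI0D18964g), a mannitol dehydrogenase gene, at 374.8, 233.9 and 252.0 CPM in glycerol cultures, against 641.0, 703.7 and 496.7 CPM in glucose cultures (-1.10 ± 0.19).

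Of 4 genes of secreted lipases and acid protease 2 were called lower and 2 not called, with a median of -0.60. LIP8 (YALI0B09361g), an extracellular lipase gene, was at 9.79, 12.4 and 19.8 CPM in glycerol cultures, against 1066.7, 849.6 and 11.7 CPM in glucose cultures. Glucose replicate 3 lay within the range of the glycerol libraries, so the groups overlapped. The change was -5.53 ± 0.78 (edgeR, Benjamini-Hochberg adjusted p = 2.51e-06), and -6.11 without glucose replicate 3. LIP2 (YALI0A20350g), the main extracellular lipase, was low in the same library, with 91.2, 47.3 and 158.7 CPM in glycerol cultures, against 95.2, 94.5 and 18.3 CPM in glucose cultures. It was not called (0.51 ± 0.38; edgeR, Benjamini-Hochberg adjusted p = 0.282) and stood at 0.06 without glucose replicate 3. It stood at -0.01 without glycerol replicate 3, at 0.85 without glycerol replicate 2 (edgeR, Benjamini-Hochberg adjusted p = 0.069), and at 0.80 without glucose replicate 1 or without glucose replicate 2. The acid protease gene AXP1 (YALI0B05654g) was called at -0.65 ± 0.21, a call lost without glycerol replicate 1 or 3 (-0.57 and -0.50; edgeR, Benjamini-Hochberg adjusted p = 0.0543 and 0.0791). LIP7 (YALI0D19184g), not called at -0.56 ± 2.60, had at most 2 reads in any of the 6 libraries. The median of the list lies midway between AXP1 and LIP7, so it rests in part on these few reads.

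Nitrogen assimilation was called lower on glycerol in 3 of 5 genes, with a median of -0.58, beside 22.2% called lower over all genes. Glutamate synthase GLT1 (YALI0B19998g) was at 461.5, 449.5 and 502.1 CPM in glycerol cultures, against 1626.2, 1174.4 and 770.5 CPM in glucose cultures, a change of -1.34 ± 0.16 (edgeR, Benjamini-Hochberg adjusted p = 5.06e-08). Glycerol replicates were close and glucose replicates spread, with replicate 3 nearest to glycerol and no overlap. Glutamine synthetase GLN1 (YALI0F00506g) was at 1166.8, 994.1 and 1118.7 CPM in glycerol cultures, against 1972.2, 1718.7 and 1514.8 CPM in glucose cultures (-0.67 ± 0.20). The NADP-linked glutamate dehydrogenase GDH1 (YALI0F17820g) changed by -0.58 ± 0.15, with overlap, and lost its call without glucose replicate 1 (-0.31; edgeR, Benjamini-Hochberg adjusted p = 0.0599). The NAD-linked one, GDH2 (YALI0E09603g), stood at 0.06 ± 0.13.

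The authors' deposited table gives symbols to 71 genes, nearly all of them regulators. Of these 12 were called higher, 26 lower and 33 were not called, with a median of -0.24. How these genes were picked for naming is not stated, so their counts speak for no wider class of genes. Their roles are stated below as known from Saccharomyces cerevisiae unless another source is named, and they were grouped by role after values were seen.

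Of 5 factors of ribosome production 4 were called higher and none lower, with a median of 0.63, beside 24.5% called higher over all genes. No test compared the role groups with each other. BUD20 (YALI0D13068g), needed to export the large ribosomal subunit from the nucleus, was at 72.9, 83.6 and 86.3 CPM in glycerol cultures, against 33.2, 36.7 and 42 CPM in glucose cultures, a change of 1.12 ± 0.12 (edgeR, Benjamini-Hochberg adjusted p = 1.37e-08). TFC2 (YALI0F05104g), the factor that starts transcription of 5S ribosomal RNA, was at 43.3, 24.8 and 44.1 CPM in glycerol cultures, against 20.1, 19.5 and 16.4 CPM in glucose cultures, a change of 1.0 ± 0.19 (edgeR, Benjamini-Hochberg adjusted p = 6.71e-05). REI1 (YALI0B08734g) and JJJ1 (YALI0B15312g), which work together in late maturation of the large subunit, changed by 0.63 ± 0.13 and 0.58 ± 0.12. None of the 4 overlapped between groups, and SFP1 (YALI0F11487g), an activator of ribosomal genes, was not called (-0.16 ± 0.14).

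Regulators of nitrogen and amino acid use had 4 of 17 members called higher and 7 lower, beside 24.5% higher and 22.2% lower over all genes. ARO80 (YALI0C18645g), activator of aromatic amino acid breakdown, was at 165.6, 151.1 and 210.2 CPM in glycerol cultures, against 118.0, 102.7 and 100.8 CPM in glucose cultures, a change of 0.71 ± 0.16 (edgeR, Benjamini-Hochberg adjusted p = 0.000524). ARG81 (YALI0D09647g), of arginine metabolism, changed by 0.37 ± 0.08. On the lower side, none of these overlapping, were the GATA-type factor gene GZF5 (YALI0E16577g) at -0.97 ± 0.13, CHA4 (YALI0C15202g), activator of serine and threonine breakdown, at -0.70 ± 0.16, and NPR2 (YALI0F02783g), which restrains TORC1 when nitrogen is short, at -0.47 ± 0.09. A second GATA-type gene, GZF1 (YALI0D20482g), rested on glucose replicates 1 and 2. It was at 4.18, 2.90 and 3.60 CPM in glycerol cultures, against 27.1, 11.9 and 3.71 CPM in glucose cultures, with overlap through glucose replicate 3 (-2.01 ± 0.38). The change was -2.45 without that library and -1.18 without glucose replicate 1, called each time. In a fit of only the 6 libraries it was -2.02 and not called (edgeR, Benjamini-Hochberg adjusted p = 0.0584).

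Regulators of carbon use were called lower in 6 of 9 cases and higher in 1, beside 22.2% called lower and 24.5% higher over all genes. USV1 (YALI0B22176g) and RSF2 (YALI0D18678g), both linked to growth on nonfermentable carbon, changed by -0.44 ± 0.13 and -0.52 ± 0.14. The gluconeogenesis regulators CAT8 (YALI0D20460g), ERT1 (YALI0E18304g) and RDS2 (YALI0E10087g) changed by -0.41 ± 0.11, -0.35 ± 0.09 and -0.28 ± 0.07, and the corepressor gene TUP1 (YALI0A14542g) by -0.43 ± 0.09. The changes of this group were small, and apart from AZF1 (YALI0A16841g) none of those called reached 2-fold. AZF1, a zinc finger factor, was at 9.35, 10.4 and 6.71 CPM in glycerol cultures, against 1.33, 0.885 and 4.34 CPM in glucose cultures, a change of 2.06 ± 0.40, or 3.02 without glucose replicate 3.

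Stress, pH and metal regulators had 1 of 12 members called higher and 6 lower, beside 24.5% higher and 22.2% lower over all genes. RIM101 (YALI0B13640g), the pH-response factor of this yeast, was at 81.2, 65.6 and 82.7 CPM in glycerol cultures, against 169.0, 198.1 and 169.1 CPM in glucose cultures, although all 6 libraries are labelled pH 5.5. The groups were clearly apart at -1.23 ± 0.12 (edgeR, Benjamini-Hochberg adjusted p = 4.59e-09). Regulators of cell cycle and cell shape had 4 of 9 members called lower, beside the 22.2% over all genes. HOY1 (YALI0A18469g), a homeobox gene needed for hyphae in Y. lipolytica, averaged 1.73 ± 0.765 CPM on glycerol and 5.51 ± 1.48 CPM on glucose (SD, n = 3 each; -1.70 ± 0.23). MHY1 (YALI0B21582g), the zinc finger gene of hyphal growth, was at 23.0, 9.31 and 52.2 CPM in glycerol cultures, against 36.1, 35.6 and 32.4 CPM in glucose cultures. The glycerol libraries spread on both sides of the glucose ones, and it was not called (-0.32 ± 0.36), stood at 0.11 without glycerol replicate 2, and was called at -1.12 without glycerol replicate 3 (edgeR, Benjamini-Hochberg adjusted p = 0.00791). Of the remaining 19 symbols 2 were called higher, 3 lower and 14 were not called. IXR1 (YALI0B04510g), a hypoxia regulator, changed most of these, with 64.5, 54.9 and 45.9 CPM in glycerol cultures, against 139.9, 126.1 and 134.0 CPM in glucose cultures (-1.27 ± 0.14).

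**Figure D3:**
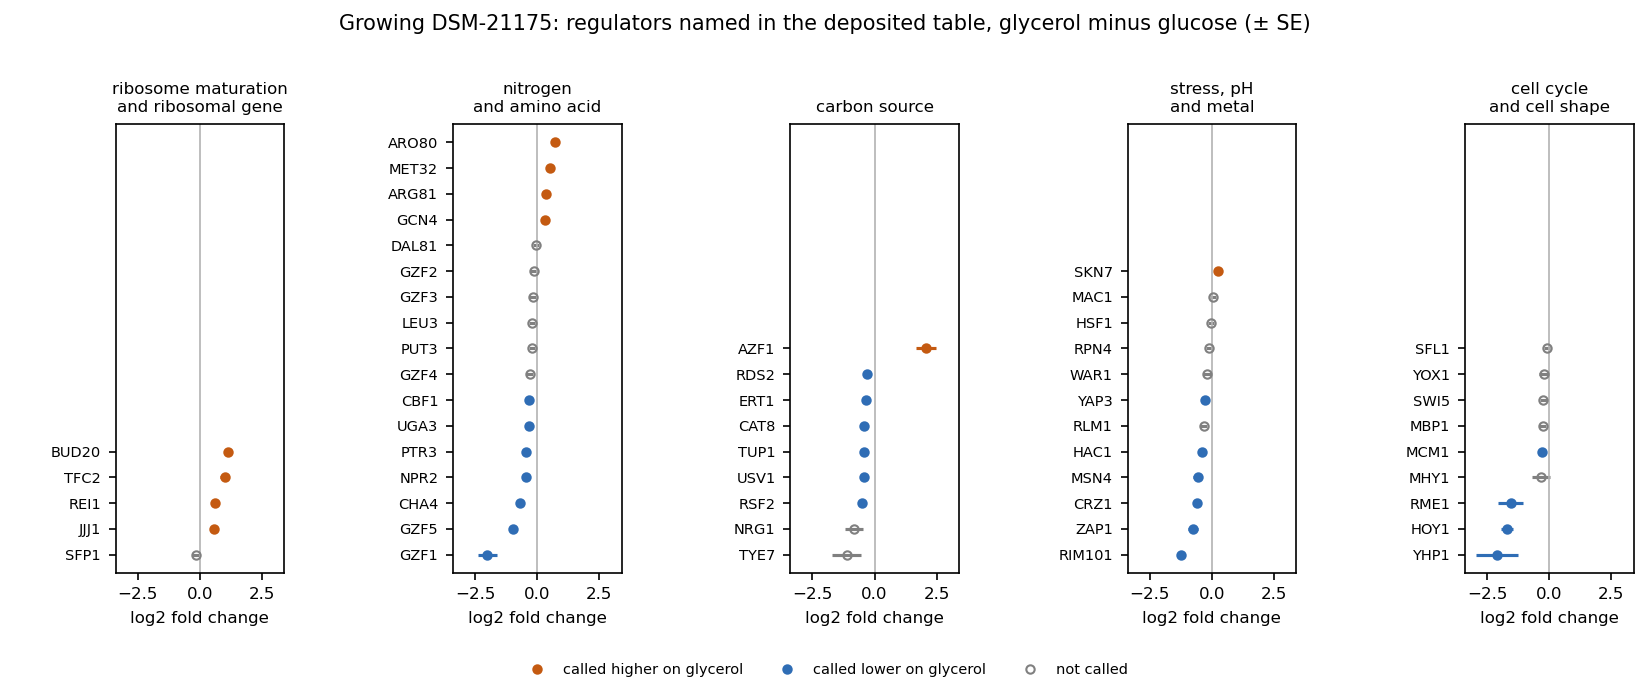
Log2 fold change, glycerol minus glucose, with its SE for the deposited symbols in 5 groups of regulators by role. Filled points were called. The ribosome group lies right of zero except for SFP1, from -0.16 to 1.12, and the carbon source group lies left of zero except for AZF1 at 2.06.

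Among genes without a name in the files used, YALI0B21846g had the highest change of all genes tested. It was at 209.8, 117.4 and 291.9 CPM in glycerol cultures, against 1.51, 1.48 and 0.994 CPM in glucose cultures, a change of 7.26 ± 0.32. YALI0B21868g was at 174.8, 137.2 and 217.1 CPM in glycerol cultures, against 2.04, 1.55 and 1.81 CPM in glucose cultures, a change of 6.62 ± 0.24 (edgeR, Benjamini-Hochberg adjusted p = 1.17e-15 and 4.14e-18). The pair follow each other on the chromosome, together with another gene of the same direction, and formed a run of 3 with changes from 6.62 to 7.26. Only 5 runs of 3 or more neighbouring genes, each called and at least 2-fold in 1 direction, were found in the gene order of the reference table, 2 higher and 3 lower, and the other 4 runs had changes between -3.51 and 1.28. On the lower side YALI0B19492g was at 17.7, 13.6 and 49.3 CPM in glycerol cultures, against 1790.5, 1645.4 and 1121.3 CPM in glucose cultures (-5.83 ± 0.41), and YALI0E26499g averaged 1.21 ± 0.41 CPM on glycerol and 68.2 ± 14.4 CPM on glucose (SD, n = 3 each; -5.77 ± 0.31).

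Genes with noncoding locus tags took 0.0581, 0.0758 and 0.0707% of reads in glycerol cultures, against 0.0507, 0.0419 and 0.0509% in glucose cultures. Of 227 tested, 20 were called higher and 5 lower, with a median of 0.87, but the libraries were made from poly(A) RNA and these genes had few reads. Mitochondrial genes took 0.0304, 0.00759 and 0.0167% of reads in glycerol cultures, against 0.0314, 0.053 and 0.00586% in glucose cultures, and none of 15 tested was called by edgeR (median -0.70). The lowest library of each carbon source by this share was the one that stood apart. Its part in the results above was not tested.

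The change between carbon sources was then set against that of the second strain, by a test of the difference of the changes (DSM-21175 minus DSM-3286). In growing DSM-3286, 3618 genes were called (55.3%). The difference itself was called in 642 genes (9.82%), 403 higher (6.16%) and 239 lower (3.66%). Of these 642, 234 were called in both strains with the same sign, 55 in both with opposite signs, 104 in DSM-21175 but not in DSM-3286, 245 in DSM-3286 but not in DSM-21175, and 4 in neither. Without DSM-21175 glycerol replicate 2 the differences called numbered 874, of which 360 were lower, and they numbered 475 without DSM-21175 glycerol replicate 3. Genes called in both strains with the same sign numbered 2341, which is 76.8% of the calls in DSM-21175 and 64.7% of those in DSM-3286, and the change was larger in DSM-3286 in 1591 of them (median size 0.68 in DSM-21175 and 0.80 in DSM-3286).

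YHT1 stood at -1.02 in DSM-21175 and at -4.38 in DSM-3286, a difference of 3.36 ± 0.70 (edgeR, Benjamini-Hochberg adjusted p = 0.00199). On glycerol YHT1 averaged 1063.3 ± 70.4 CPM in DSM-21175 and 168.2 ± 43.5 CPM in DSM-3286, and on glucose 2155.6 ± 195.2 CPM in DSM-21175 and 3501.4 ± 43.8 CPM in DSM-3286 (SD, n = 3 each). YHT4 had a like pattern, with -1.29 in DSM-21175 and -3.64 in DSM-3286 (a difference of 2.35 ± 0.28; edgeR, Benjamini-Hochberg adjusted p = 7.89e-07). GUT1 fell by 0.78 in DSM-21175 and by 2.13 in DSM-3286, a difference of 1.35 ± 0.22 (edgeR, Benjamini-Hochberg adjusted p = 6.2e-05), and its glucose level of 1045.1 ± 118.3 CPM in DSM-21175 compares with 5004.8 ± 112.4 CPM in DSM-3286 (SD, n = 3 each).

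ALK7 (YALI0A15488g) was level in DSM-21175, at 9.67 ± 2.26 CPM on glycerol and 9.16 ± 0.968 CPM on glucose, whereas in DSM-3286 it averaged 7.49 ± 0.728 CPM on glycerol and 147.9 ± 9.93 CPM on glucose (SD, n = 3 each). The difference was 4.37 ± 0.61 (edgeR, Benjamini-Hochberg adjusted p = 2.06e-05). ALK3 differed by 3.25 ± 0.70 and POX5 by 2.43 ± 0.58, with falls in both strains. The POX5 difference was 0.42 and not called on the deposited log2 values (limma, Benjamini-Hochberg adjusted p = 0.573). LIP2 stood at 0.51 in DSM-21175 and -2.45 in DSM-3286, a difference of 2.96 ± 0.54 (edgeR, Benjamini-Hochberg adjusted p = 0.000475).

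For ARO80 and ACL2 the strains had opposite calls. ARO80 was called higher in DSM-21175 (0.71) and lower in DSM-3286 (-0.81), a difference of 1.52 ± 0.23 (edgeR, Benjamini-Hochberg adjusted p = 2.75e-05). ACL2 was called higher in DSM-21175 (0.56) and lower in DSM-3286 (-0.41), a difference of 0.97 ± 0.16 (edgeR, Benjamini-Hochberg adjusted p = 9.73e-05), while its partner ACL1 was called higher in both (0.72 and 0.34). Among differences below zero, STP3 (YALI0B05478g) was at 0.14, not called, in DSM-21175 and at 1.62 in DSM-3286 (-1.48 ± 0.32). IXR1 was at -1.27 in DSM-21175 and at -0.10, not called, in DSM-3286 (-1.17 ± 0.20). The neighbouring pair YALI0B21846g and YALI0B21868g differed by 6.73 ± 0.51 and 5.02 ± 0.38. In DSM-3286 YALI0B21846g averaged 2.46 ± 0.781 CPM on glycerol and 1.71 ± 0.397 CPM on glucose (SD, n = 3 each), so neither carbon source gave a high level there.

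**Figure D4:**
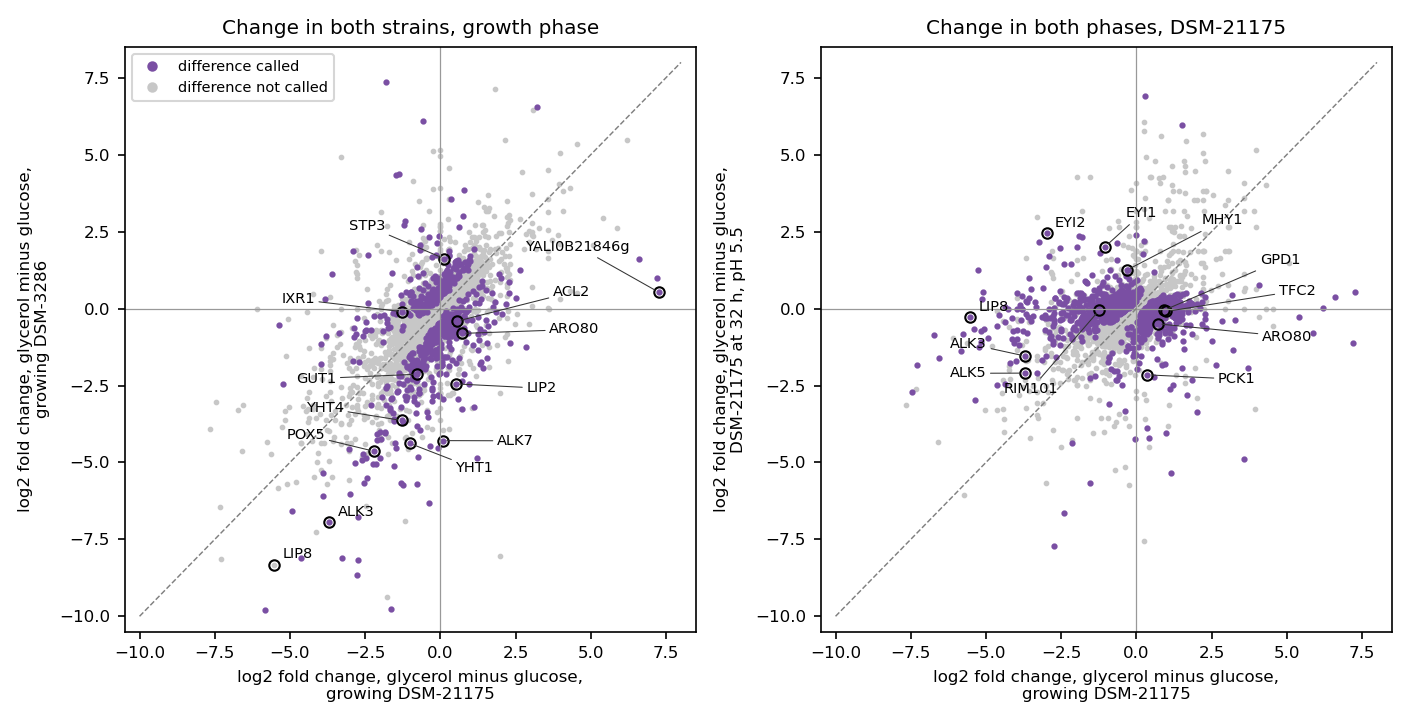
Log2 fold change (glycerol minus glucose) of each gene in growing DSM-21175 on the horizontal axes, against growing DSM-3286, left, and DSM-21175 at 32 h, right. Purple points are the 642 and 1966 genes whose difference was called and the dashed line marks equal change. YHT1, YHT4 and ALK7 lie below the line on the left, and on the right the purple points spread along the horizontal axis.

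The change between carbon sources was also set against that of DSM-21175 at 32 h, where both carbon sources were sampled at the same hour. At 32 h 776 genes were called (11.9%). The replicates there were also uneven. On glucose at 32 h Pearson's r was 0.9953 between replicates 1 and 2, but 0.96897 and 0.97092 between either of them and replicate 3. On glycerol at 32 h it was 0.99063 between replicates 1 and 2, against 0.98048 and 0.97821 with replicate 3. A gene not called at 32 h is therefore not shown to be unchanged there. The difference between the phases (growth minus 32 h) was called in 1966 genes (30.1%), 1133 higher (17.3%) and 833 lower (12.7%), and 1588 of these were called in growth phase but not at 32 h, while 121 were called at 32 h but not in growth. In a fit of only these 12 libraries 1280 differences were called, 488 of them lower. Calls shared by both phases with the same sign numbered 365, or 12.0% of the growth calls and 47.0% of the 32 h calls, and 87 had opposite signs.

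Several genes that changed in growing cells did not pass at 32 h. GPD1 was at 0.92 in growth and -0.06 at 32 h (a difference of 0.97 ± 0.14), RIM101 at -1.23 in growth and -0.05 at 32 h (-1.18 ± 0.17), and LIP8 at -5.53 in growth and -0.29 at 32 h (-5.24 ± 1.01). The ribosome factors BUD20 and TFC2 differed by 0.99 ± 0.17 and 1.09 ± 0.26, with 0.13 and -0.09 at 32 h. ALK5 kept a call at 32 h but with a smaller size (-3.72 in growth and -2.10 at 32 h, a difference of -1.62 ± 0.27). POX4 was called in both phases, at -3.58 in growth and -2.68 at 32 h, and its difference of -0.90 ± 0.43 was not called (edgeR, Benjamini-Hochberg adjusted p = 0.123).

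The erythritol-use genes had opposite signs in the phases. EYI1 was at -1.04 in growth and 2.01 at 32 h (a difference of -3.05 ± 0.47; edgeR, Benjamini-Hochberg adjusted p = 2.11e-05), EYI2 at -2.98 in growth and 2.46 at 32 h (-5.44 ± 1.03), and EYK1 at -1.92, not called, in growth and 2.37 at 32 h (-4.29 ± 1.09). Their levels at 32 h on glycerol varied widely, as EYI2 averaged 248.6 ± 191.6 CPM on glycerol and 45.3 ± 14.4 CPM on glucose (SD, n = 3 each). ARO80 was higher in growth and lower at 32 h (0.71 and -0.50, a difference of 1.21 ± 0.23). PCK1 (YALI0C16995g), of gluconeogenesis, was not called in growth (0.36 ± 0.20) and lower at 32 h (-2.15 ± 0.21), a difference of 2.51 ± 0.29 (edgeR, Benjamini-Hochberg adjusted p = 3e-07). YALI0B21846g and YALI0B21868g were high on both carbon sources at 32 h. YALI0B21846g averaged 379.7 ± 83.3 CPM on glycerol and 263.9 ± 51.4 CPM on glucose at 32 h (SD, n = 3 each), so of the 4 groups of DSM-21175 at pH 5.5 the growing glucose cultures were the one with few reads of it.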

How the data were processed

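Strand-specific poly(A) libraries were made from column-purified RNA of bead-broken cells, per the labels' protocols. The tools listed in the submitters' processing notes are featureCounts 1.5.1, BWA 0.7.12-r1039 and edgeR, without roles. Neither the build nor the strand option of the counting is given in the sources used. The authors deposited raw counts for 7132 genes (6448 coding, 639 noncoding, 45 mitochondrial) with effective gene lengths, and other values on a log2 scale in a second table. Its values matched log2 of 1 plus the reads per kilobase of effective length, scaled by 1 fitted factor per library. The match was within 0.02 for 99.9% of entries. The second table also gave 71 gene symbols, matched to locus tags by their values. The deposited effective lengths were used only for FPKM and for this match.

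Counts of 35 libraries in 12 groups were fitted with edgeR 4.0.16 (R 4.3.3; TMM factors 0.865 to 1.18, filterByExpr, robust quasi-likelihood F-test, 23 residual degrees of freedom), which tested 6537 genes. P-values were adjusted by the Benjamini-Hochberg method, with calls below 0.05. SEs were obtained by dividing the absolute log2 fold change by the root of its F value. Differences between strains and between phases were contrasts of the same fit. The biological coefficient of variation was 14.8%. On simulated counts the main comparison found 91 of 100 genes changed 2-fold and 98 of 100 changed 4-fold, with 6 false calls among 6396 genes. For the strain difference it found 77 and 95 of 100, and for the phase difference 75 and 98 of 100. In the simulation each gene had the same mean in every group, except for the changed genes in growing DSM-21175 on glycerol. Noise was independent between libraries and none was made to stand apart. The real libraries differ in both respects, so these rates do not carry over to them.

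Members, lists and tests were chosen with earlier results of these data known. The text names up to 4 called genes per list, up to 10 higher and 10 lower deposited symbols with a mean log2 CPM of at least 3 and no overlap, 2 unnamed genes in each direction, up to 5 genes of each sign per difference, and GUT1, GUT2, GPD1, EYK1, CEX1 and LIP2. This rule gave 73 genes. Published names were given to 101 locus tags, of which 5 could be compared with the deposited symbols and were the same. The reference table (ASM176148v1) matched 6682 gene IDs, gave no names and served only for gene order. Some genes are not reported here. Alternatives were RLE scaling, no filter, DESeq2 1.42.0, limma 3.58.1 on the log2 table, a fit restricted to the libraries compared, a replicate block, and leaving out libraries. No 2 replicates were identical.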

Additional observations from a re-analysis of the deposited data

Results flagged for a closer look

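Each result here is a gene whose change between glycerol and glucose differed, by the test of the difference itself, between the strains (DSM-21175 minus DSM-3286, growth phase) or between the phases of DSM-21175 (growth minus 32 h). Values are differences of log2 fold changes, called by edgeR with Benjamini-Hochberg adjustment. The genes are a selection from the 642 strain differences and 1966 phase differences called. Called differences of other genes named above, such as YHT4 between strains and RIM101 between phases, are not repeated.

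Between strains, the differences above zero were 6.73 for YALI0B21846g, 5.02 for YALI0B21868g, 4.37 for ALK7, 3.96 for YALI0B19492g, 3.36 for YHT1, 3.25 for ALK3, 2.96 for LIP2, 2.43 for POX5, 1.52 for ARO80, 1.35 for GUT1, 0.97 for ACL2 and 0.45 for GPD1. Those below zero were -1.48 for STP3, -1.17 for IXR1, -0.56 for REI1 and -0.49 for TAL1 (YALI0F15587g), the transaldolase of the pentose phosphate pathway. REI1 was called in both strains with the same sign, at 0.63 in DSM-21175 and 1.18 in DSM-3286, and its difference lost the call when any 1 of 11 of the 12 libraries was left out, with -0.42 as the smallest size, without DSM-21175 glucose replicate 3 (edgeR, Benjamini-Hochberg adjusted p = 0.161). TAL1 was not called in DSM-21175 (-0.07) and stood at 0.42 in DSM-3286.

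Between phases, the differences above zero were 6.74 for YALI0B21846g, 6.23 for YALI0B21868g, 2.51 for PCK1, 1.86 for ALK7, 1.21 for ARO80, 1.09 for TFC2, 0.99 for BUD20 and 0.97 for GPD1. Those below zero were -5.44 for EYI2, -5.24 for LIP8, -4.96 for YALI0E26499g, -4.44 for YALI0B19492g, -4.29 for EYK1, -3.05 for EYI1, -2.15 for ALK3, -1.62 for ALK5 and -1.57 for MHY1. The difference of ALK7 was 0.45 without 1 of the 32 h libraries, glucose replicate 3 (edgeR, Benjamini-Hochberg adjusted p = 0.203), and that of ALK3 -3.57 without the same library. The difference of ALK3 lost its call without 32 h glycerol replicate 2 (-1.91; edgeR, Benjamini-Hochberg adjusted p = 0.0572), without both libraries that stood apart (-1.94; adjusted p = 0.054 by the same test) and when the model held just its own 12 libraries (-2.18; adjusted p = 0.137 by the same test). MHY1 was not called in growth (-0.32) and was called higher on glycerol at 32 h (1.25), and its difference lost the call without growth-phase glycerol replicate 1 (-1.44; edgeR, Benjamini-Hochberg adjusted p = 0.0604) or without 32 h glycerol or glucose replicate 3 (-1.23 and -1.25; edgeR, Benjamini-Hochberg adjusted p = 0.0837 and 0.0643).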

How the results depend on the processing

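The comparison of growing DSM-21175 called 3087 genes with RLE scaling, 3041 with no filter, 3166 with DESeq2, 3084 with limma and 2420 in a fit of only its 6 libraries, against 3049 as reported, and 2681 to 2925 when 1 library was left out (1441 to 1516 higher and 1233 to 1409 lower). More genes were called lower than higher with the first 4 of these and more higher than lower in the fit of 6 libraries. Among the genes named above, the fit of 6 libraries gained the call of YHT1. It lost those of GLK1, PFK1, PYC1, FBP1, CIT1, EYI1, EYI2, AXP1, GDH1, GZF1 and USV1 (edgeR, Benjamini-Hochberg adjusted p from 0.0546 to 0.2). Strain differences numbered 475 to 874 with 1 library left out (315 to 514 higher, 160 to 360 lower), and phase differences 1730 to 2045 (965 to 1146 higher, 705 to 911 lower). A fit of only the libraries compared called 1280 phase differences, 792 higher and 488 lower. The median of the secreted lipase and protease genes was -0.60 and lay between -1.85 and 0.07 with 1 library left out. It changed sign without DSM-21175 glucose growth replicate 2, and was -2.1 without both libraries that stood apart. The widest of these shifts went with LIP7, which had at most 2 reads in any of the 6 libraries. LIP7 stood at 2.22 without glucose replicate 2 and at -2.79 without glycerol replicate 2, so the shifts say little of the list. ALK2, not called at -0.49, lay between -1.05 and 2.82 with 1 library left out, and was called higher without DSM-21175 glucose growth replicate 3 and, at 2.56, without both libraries that stood apart. Over the named genes and these alternatives, 1594 values kept their direction and their side of the threshold, 92 lost the call, 10 gained it, 2 reversed and 34 changed sign without a call on either side. The same replicate numbers did not deviate together (correlations of 0.121, -0.361 and -0.228 for numbers 1, 2 and 3), and a replicate block gave 2965 calls in the comparison, 580 strain differences and 1875 phase differences. Depth limits ALK8, ALK10, YHT2 and LIP7, with at most 16 reads in any of the 6 libraries.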
